A study of Homo sapiens with 12 samples.

Results

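The genes that write, read and erase methylation of lysine 27 of histone H3 were followed in human neural progenitor cells (NPCs) and in their differentiated progeny. They are 10 genes, listed by name among the 58302 genes counted: the H3K27 demethylase genes KDM6A (UTX) and KDM6B (JMJD3), the methyltransferase genes EZH2 and EZH1 of Polycomb repressive complex 2 (PRC2), and the genes for its other subunits EED, SUZ12, RBBP4, RBBP7, JARID2 and AEBP2. All 10 had at least 26 counts in every library and entered the test, which covered 13454 genes. RNA-seq was done on 12 libraries of H1 cells, an established human ESC line, in 6 groups of 2 samples. The groups were WT NPCs and dKO NPCs at passage 2 (P2), WT and dKO NPCs at passage 4 (P4), and WT-D28 and dKO-D28 cells, which were P2 NPCs after 28 days of spontaneous differentiation without FGF2 and EGF and with GDNF, BDNF and cAMP. NPCs of both genotypes had been induced with SB431542 and dorsomorphin and expanded from picked rosettes as neural spheres. dKO stands for UTX and JMJD3 knockout (JMJD3-/-, UTX-/Y): Cas9 and donor DNA with a LoxP-flanked puromycin cassette were used to delete the catalytic sites of the JmjC domains, JMJD3 before UTX, and the cassette was removed from JMJD3 with Cre mRNA. The labels give 1 dKO line without saying whether more than 1 clone was used, and they do not say that the 2 samples of a group came from separate cultures, so the p-values measure the spread between these samples only, which may be technical.

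PRC2 places methyl groups on lysine 27 of histone H3, and the trimethylated form marks genes that are kept silent, many of them regulators of development. EZH2 or EZH1 carries the catalytic SET domain, which is active only together with EED and SUZ12; RBBP4 and RBBP7 bind histones; JARID2 and AEBP2 are accessory subunits that help the complex to bind chromatin and to work. KDM6A and KDM6B remove the mark through their JmjC domain, and dividing neural progenitors are known for high EZH2, whereas EZH1 is the form typical of cells that have left the cell cycle.

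The study places the key catalytic sites in exon 24 of UTX and exon 18 of JMJD3 and, in the sources used here, names no transcript. In the canonical transcripts of GENCODE v44, the exons with these numbers are exon 24 of 30 in KDM6A (chrX:45083460-45083608, hg38, plus strand) and exon 18 of 24 in KDM6B (chr17:7851648-7851796, hg38, plus strand). Both are shown because they carry the numbers that the study gives. Whether its numbering follows these transcripts was not checked, so they may not be the exons that hold the catalytic sites. Which bases each donor removed was not analysed here. They were read from hg38, and capitals mark the bases that are the same in the paired exons.
KDM6A exon 24: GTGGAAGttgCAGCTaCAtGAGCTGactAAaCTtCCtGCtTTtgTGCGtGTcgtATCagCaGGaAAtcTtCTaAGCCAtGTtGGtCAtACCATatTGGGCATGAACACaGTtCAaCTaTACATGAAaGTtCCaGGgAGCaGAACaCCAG
KDM6B exon 18: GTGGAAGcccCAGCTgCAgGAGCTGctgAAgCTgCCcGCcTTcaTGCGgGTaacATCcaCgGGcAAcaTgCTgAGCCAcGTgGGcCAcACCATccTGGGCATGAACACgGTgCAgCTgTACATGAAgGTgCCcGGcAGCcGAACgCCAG
Of the 149 bases in each exon, 107 (71.8%) were identical without any gap. The exon makes up 2.45% of the canonical KDM6A transcript and 2.21% of that of KDM6B, and the deposited counts cover whole genes, so the counts do not measure what was deleted. A transcript that lacks the deleted bases is still counted.

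Total counts lay between 756942 and 10601172 per library, and the 4 libraries of P2 NPCs had the lowest totals, up to 1438807. A value of 3 counts corresponds to between 0.297 and 3.86 CPM (the usual scaling of counts to library size, here with TMM factors), and these floors cover counting error only. SOX2, NES and VIM, defining genes of neural progenitors, were at 215 CPM or more in all 12 libraries. Other genes of the same list were not. HES5 was at 2.57 CPM or less, and PAX6 was at 11.7 and 11.5 CPM in WT-D28 and between 175 and 351 CPM in the other groups. Over all 12 libraries SOX1 lay between 44.9 and 183 CPM and FABP7 between 43.2 and 1856 CPM. The stem cell genes POU5F1 and NANOG were at 0 in all 12. The summed level of 10 neuron markers was 4901 to 4931 CPM in WT-D28 and 690.0 to 1229 CPM in dKO-D28, but it was 5176 to 5756 CPM in WT NPCs at P4, which their label calls progenitors. By the chi-square over genes divided by its degrees of freedom, the dKO-D28 libraries differed more from each other (14.0) than the other pairs did (1.55 to 3.30). Results at day 28 are therefore also given without each of them. This measure grows with depth. The SD over genes of the log2 difference within a pair, which low depth raises, was largest in WT NPCs at P2 (0.604). It was 0.534 in dKO-D28 and 0.197 to 0.496 in the other groups. A fit without 1 library leaves 1 library in its group, which is then assumed to vary like the other groups.

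**Figure D1:**
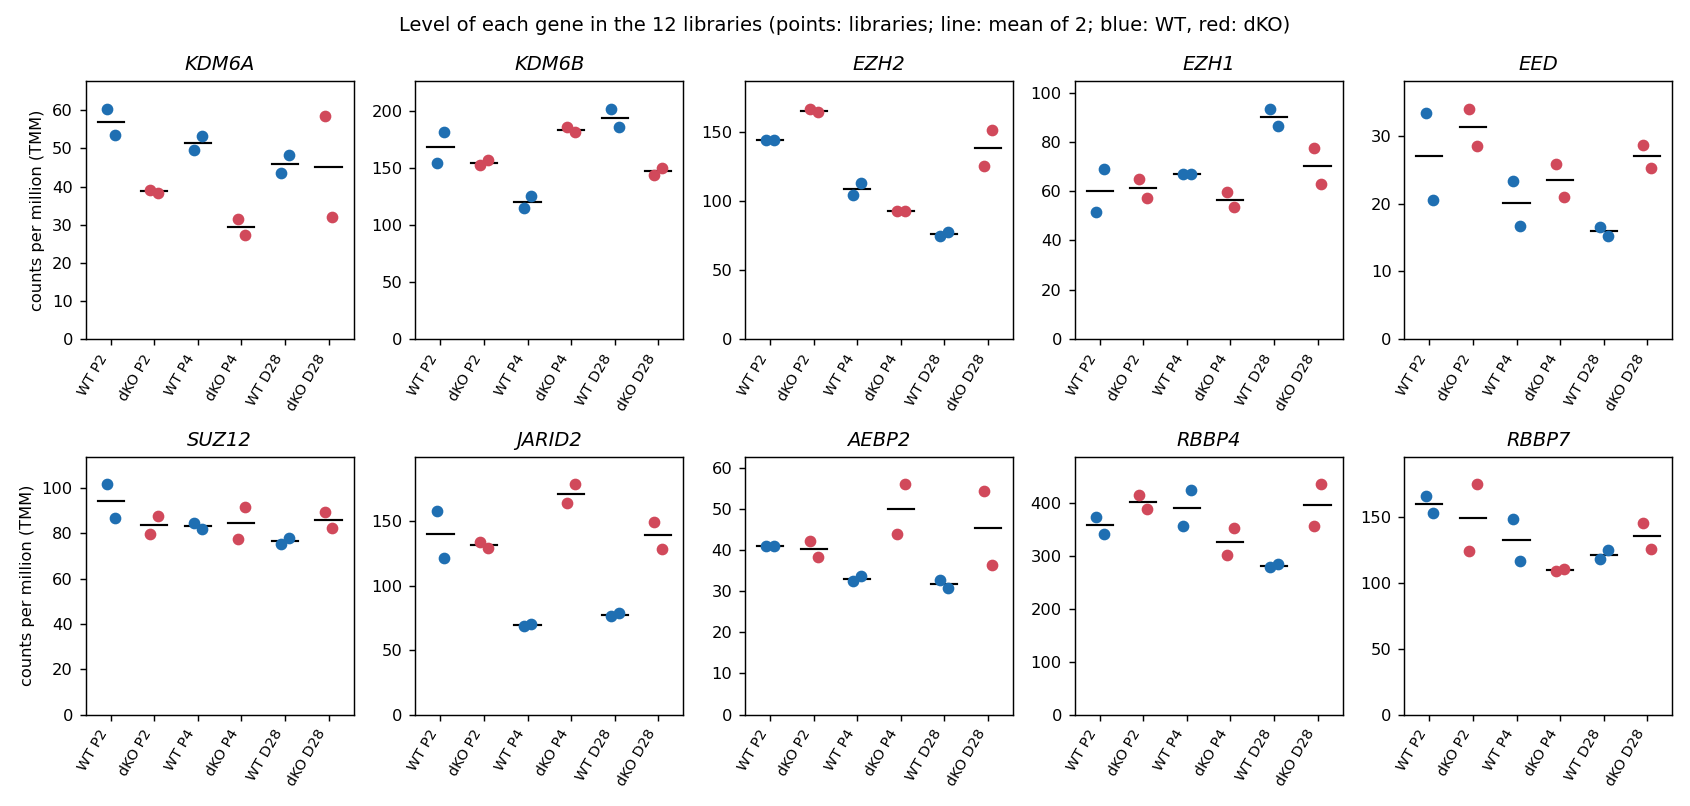
Level of each gene in CPM with TMM library sizes (y axis, from 0) in the 12 libraries (points), by group along the x axis, with the mean of 2 libraries as a line and WT in blue and dKO in red. JARID2 was at 68.8 to 78.6 CPM in WT NPCs at P4 and in WT-D28 and at 121 to 179 CPM in the other 8 libraries, and the KDM6A points of dKO-D28 lie far apart.

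Levels were first set side by side on a scale per gene length (counts per kilobase of exons, scaled to the same sum in each library). On this scale RBBP4 was highest and KDM6A lowest of the 10 genes in each of the 6 groups. In WT NPCs at P2, RBBP4 was at 160 ± 11.1 (SD, n = 2), followed by KDM6B at 96.1 ± 10.3, JARID2 at 94.8 ± 18.4 and RBBP7 at 92.1 ± 5.73. KDM6B, JARID2 and RBBP7 were neighbours whose samples overlapped, and so were SUZ12 at 60.9 ± 7.27 and EZH2 at 56.7 ± 0.234. Below them came EZH1 at 36.5 ± 7.27, AEBP2 at 25.7 ± 0.199, EED at 16.4 ± 5.63 and KDM6A at 8.71 ± 0.800, each pair of neighbours without overlap. The ratio of KDM6A to KDM6B per length was 0.0401 to 0.115 over the 12 libraries. KDM6A has 27742 annotated exonic bases, more than 99.2% of the tested genes, against 12117 in its longest transcript, so its level per length depends on the length used; with the longest transcript it was still lowest in every group, whereas the middle ranks changed.

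dKO was compared with WT at each stage, which asks how far the knockout itself and the rest of the H3K27 methylation machinery differed in RNA level. In P2 NPCs, 0 of the 10 genes passed an adjusted p of 0.05 (quasi-likelihood F test of edgeR, Benjamini-Hochberg adjusted over the 13454 genes), 0 had an unadjusted p under 0.05 and 0 passed with DESeq2, while 2.77% of all genes tested passed. In P4 NPCs, 4 of 10 passed against 49.6% of all genes: KDM6B, JARID2 and AEBP2 were upregulated and KDM6A was downregulated in dKO. At day 28, 7 of 10 passed against 54.2% of all genes: EZH2, EED, JARID2, AEBP2 and RBBP4 were higher and KDM6B and EZH1 lower in dKO-D28 than in WT-D28. The shares of the 10 genes that passed were near those of all genes, so the counts themselves are no result about these genes. The count at day 28 was 4 without WT-D28 replicate 1, 5 without WT-D28 replicate 2 and 7 without either dKO-D28 library, but not with the same genes. KDM6A entered as lower and AEBP2 left without dKO-D28 replicate 1. It entered as higher and EZH1 left without replicate 2. EZH2, EED, JARID2 and RBBP4 passed in all 4 of these fits. The median log2 fold change of the 10 genes was -0.10 at P4 and 0.33 at day 28, against 0.02 and 0.0026 for all genes. JARID2 at P4 was the only one of these differences that exceeded 2-fold.

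**Figure D2:**
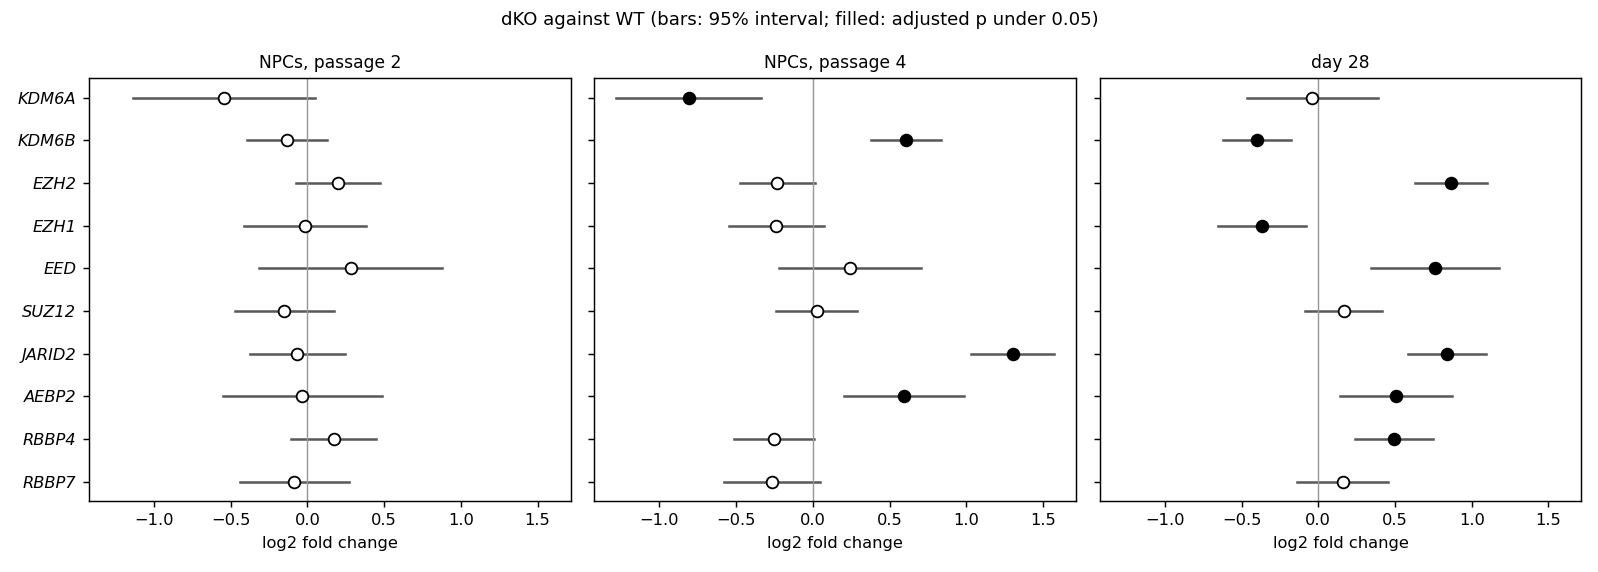
log2 fold change of dKO over WT (x axis) for the 10 genes (rows) in P2 NPCs, P4 NPCs and day 28 cells (panels), with 95% intervals from the edgeR fit as bars and filled points for an adjusted p under 0.05. No point is filled at P2, 4 are filled at P4 and 7 at day 28, and JARID2 at P4 is the farthest from 0.

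The demethylase genes come first, since they were the targets. KDM6A, which also belongs to the KMT2C and KMT2D methyltransferase complexes, was at 60.5 and 53.6 CPM in the WT libraries and at 39.2 and 38.3 CPM in the dKO libraries at P2. At P4 it was at 49.7 and 53.1 CPM in the WT libraries and at 31.4 and 27.3 CPM in the dKO libraries, and at day 28 at 43.6 and 48.3 CPM in WT-D28 and at 58.5 and 31.9 CPM in dKO-D28. In NPCs both dKO libraries lay below both WT libraries at either passage, whereas the dKO-D28 libraries lay on both sides of WT-D28. The log2 fold change was -0.54 (SE 0.28, adjusted p = 0.381) at P2, with a 95% interval from -1.14 to 0.05, and -0.81 (SE 0.22, adjusted p = 0.00691) at P4. At day 28 a single library decided the direction. The log2 fold change was -0.04 (adjusted p = 0.890) with both dKO-D28 libraries, -0.51 (adjusted p = 0.00293) without replicate 1 and 0.35 (adjusted p = 0.0280) without replicate 2. The P4 call was lost without WT replicate 2 (-0.76, adjusted p = 0.0545) and without dKO replicate 2 (-0.71, adjusted p = 0.0643). KDM6A RNA was thus counted in every dKO library, at no less than 53 counts, and these counts do not tell intact transcripts from those with the deletion. By quantitative PCR, the paper reports no detectable UTX or JMJD3 expression in the matching knockout lines during neural differentiation of the ESCs. That method amplifies a short stretch of a transcript, whereas the counts cover whole genes.

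KDM6B, the demethylase known for rapid induction by signals, was at 154 and 181 CPM in the WT libraries and at 152 and 157 CPM in the dKO libraries at P2, with overlapping groups. At P4 it was at 115 and 126 CPM in the WT libraries and at 185 and 181 CPM in the dKO libraries. At day 28 the order was the opposite, with 202 and 186 CPM in WT-D28 and 144 and 150 CPM in dKO-D28. The log2 fold change was 0.61 (SE 0.11, adjusted p = 0.000220) at P4 and -0.40 (SE 0.10, adjusted p = 0.00387) at day 28. Within WT, KDM6B fell from P2 to P4 (log2 fold change -0.49, adjusted p = 0.00383), and in dKO it was 0.25 higher (adjusted p = 0.142); this difference in change between the genotypes was 0.74 (SE 0.16, adjusted p = 0.00385). The fall in WT was -0.36 (adjusted p = 0.0952) without WT NPC replicate 2, and the difference at day 28 was -0.35 (adjusted p = 0.0538) without WT-D28 replicate 1. KDM6A and KDM6B lie far apart in base composition: KDM6A has 36.4% GC, above 4.51% of the tested genes, and KDM6B has 62.2% GC, above 92.2% of them. After a correction for GC content and length the P4 values were -0.44 for KDM6A (adjusted p = 0.0961) and 0.20 for KDM6B (adjusted p = 0.121), the day 28 value of KDM6B was -0.21 (adjusted p = 0.0912) and its difference in change was 0.38 (adjusted p = 0.101).

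EZH2, the methyltransferase of dividing cells, was at 144 and 145 CPM in the WT libraries and at 167 and 164 CPM in the dKO libraries at P2. It was at 105 and 113 CPM in the WT libraries and at 93.0 and 93.0 CPM in the dKO libraries at P4, and at 75.0 and 77.5 CPM in WT-D28 and 126 and 152 CPM in dKO-D28. Both dKO-D28 libraries thus lay above both WT-D28 libraries, and above all P4 libraries. EZH2 fell in WT over 28 days (log2 fold change -0.92, SE 0.12, adjusted p = 1.72e-05), while in dKO it was 0.26 lower with a 95% interval of the log2 fold change from -0.50 to -0.01 (adjusted p = 0.199). dKO-D28 exceeded WT-D28 by 0.86 (SE 0.11, adjusted p = 5.54e-06), by 1.01 without dKO-D28 replicate 1 and by 0.73 without replicate 2. The difference between the genotypes in change over 28 days was 0.67 (SE 0.17, adjusted p = 0.00713); the correction for GC content and length left the former and took the latter to 0.41 (adjusted p = 0.103). Between P2 and P4 EZH2 fell in dKO by 0.83 on the log2 scale (adjusted p = 0.000156) and in WT by 0.40 (adjusted p = 0.0182), and the difference between these changes did not pass (-0.43, adjusted p = 0.0849). The fall in WT at P4 was lost without 3 of the 4 libraries in turn, WT NPC replicates 1 and 2 and WT NPC P4 replicate 1 (-0.41 to -0.35, adjusted p from 0.0600 to 0.0994), and the change in dKO over 28 days passed without dKO-D28 replicate 2 (-0.40, adjusted p = 0.0159).

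EZH1, the other methyltransferase, was at 51.5 and 69.0 CPM in the WT libraries and at 65.1 and 57.1 CPM in the dKO libraries at P2. At P4 it was at 66.8 and 66.8 CPM in the WT libraries and at 59.8 and 53.4 CPM in the dKO libraries. The highest values were those of WT-D28, 93.5 and 86.5 CPM, above the 77.4 and 62.7 CPM of dKO-D28. EZH1 rose in WT over 28 days (log2 fold change 0.54, SE 0.16, adjusted p = 0.0124), and dKO-D28 was below WT-D28 (log2 fold change -0.37, adjusted p = 0.0309). These EZH1 calls were lost without 1 library. The change in WT was 0.38 (adjusted p = 0.130) without WT NPC replicate 1 and 0.50 (adjusted p = 0.0644) without WT-D28 replicate 1. The difference at day 28 was -0.21 (adjusted p = 0.161) without dKO-D28 replicate 2, -0.32 (adjusted p = 0.174) without WT-D28 replicate 1 and -0.42 (adjusted p = 0.0720) without WT-D28 replicate 2. The call at day 28 was also lost with DESeq2 (adjusted p = 0.0886), with upper-quartile scaling (adjusted p = 0.0606) and with only the compared samples (adjusted p = 0.0923).

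The ratio of EZH2 to EZH1 counts needs no library scaling. It was 2.80 and 2.10 in WT and 2.57 and 2.88 in dKO NPCs at P2, and between 1.56 and 1.74 in the 4 libraries at P4. In WT-D28 it was 0.802 and 0.896, so that EZH1 had more counts than EZH2, and in dKO-D28 it was 1.62 and 2.42. The mean log2 ratio of dKO-D28 exceeded that of WT-D28 by 1.23, and WT-D28 was below WT NPCs at P2 by 1.52 on the log2 scale. The groups did not overlap in either comparison, and the exact two-sided permutation p was 0.33 in each, the smallest that 2 against 2 samples allow. Per length, EZH2 exceeded EZH1 in 10 of 12 libraries, all but those of WT-D28, and the same 10 did with the longest transcript as length.

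**Figure D3:**
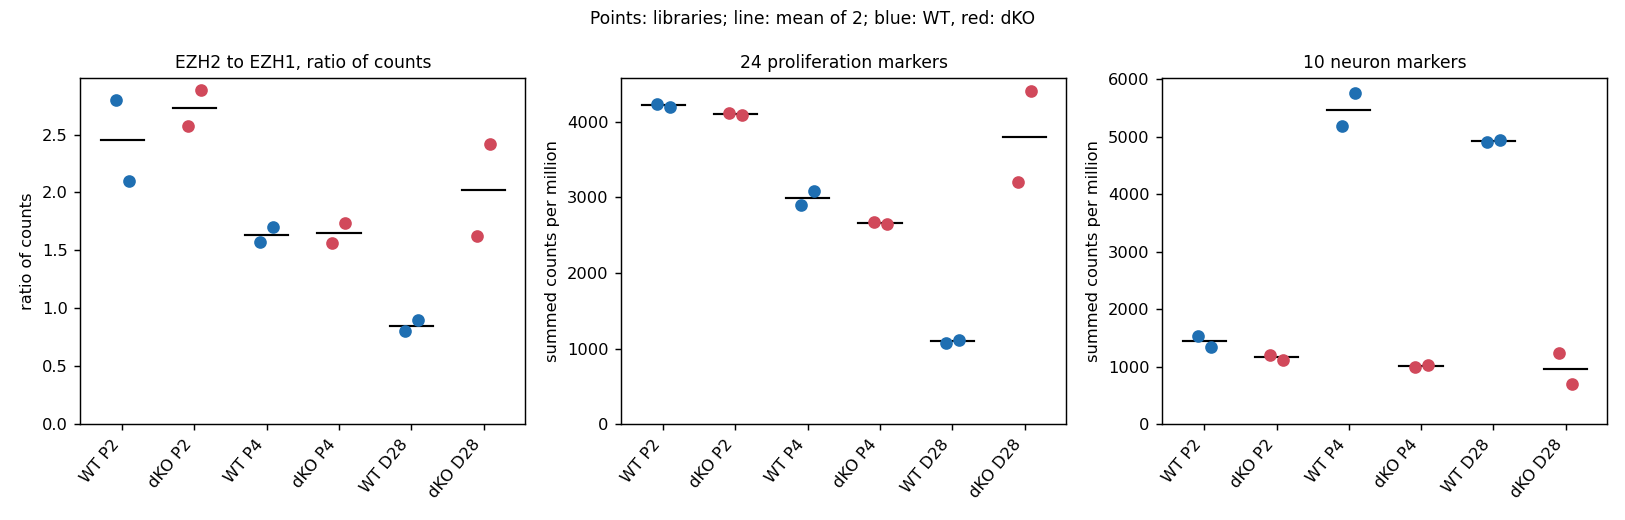
Ratio of EZH2 to EZH1 counts (left), summed CPM of 24 proliferation markers (middle) and summed CPM of 10 neuron markers (right) in the 12 libraries (points), by group with the mean of 2 libraries as a line, WT in blue and dKO in red, all y axes from 0. WT-D28 is lowest in the ratio and in the proliferation sum, and the neuron sum is high in WT NPCs at P4 and in WT-D28.

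Proliferation markers moved with EZH2, and their part in its change was not tested. The sum of the 24 markers, among them MKI67, TOP2A and the MCM helicase genes, was 4086 to 4230.0 CPM in the 4 libraries of P2 NPCs, 2650.0 to 3079 CPM at P4, 1074 to 1115 CPM in WT-D28 and 3201 to 4404 CPM in dKO-D28. Of the 24, 23 were higher in dKO-D28 than in WT-D28, with a median log2 fold change of 1.99 against 0.0026 for all genes, of which 27.5% were higher. Without either dKO-D28 library the count was 23 too. In WT over 28 days, 23 fell, against 22.9% of all genes, with a median of -2.13 against 0.038 for all genes. Over 28 days in dKO, 0 of the 24 passed with edgeR's quasi-likelihood test, against 9.56% of all genes. Of the 24, 1 had an unadjusted p under 0.05 and 0 passed with DESeq2. Their median log2 fold change over 28 days in dKO depended on the library. It was -0.208 with both dKO-D28 libraries, -0.0035 without replicate 1 and -0.451 without replicate 2. In these bulk samples, fewer cells of a type and less RNA per cell cannot be told apart.

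EED, which holds the complex together and binds the trimethylated mark, had the lowest counts of the 10 genes, 26 to 154 per library. It was at 33.4 and 20.6 CPM in the WT libraries and 34.0 and 28.6 CPM in the dKO libraries at P2, at 23.4 and 16.7 CPM and at 25.9 and 21.0 CPM at P4, and at 16.6 and 15.3 CPM in WT-D28 and 28.7 and 25.3 CPM in dKO-D28. The groups overlapped at P2 and P4 and were apart at day 28, where EED was higher in dKO-D28 (log2 fold change 0.76, SE 0.20, adjusted p = 0.00387), by 0.68 without dKO-D28 replicate 1 and by 0.86 without replicate 2. EED fell in WT over 28 days (log2 fold change -0.69, adjusted p = 0.0396). The value was -0.37 (adjusted p = 0.374) without WT NPC replicate 1 and the call was also lost without either WT-D28 library (-0.75, adjusted p = 0.0752, and -0.64, adjusted p = 0.126). It passed in 3 of 8 other fits. Among those where it did not were DESeq2 (adjusted p = 0.0633) and the correction for GC content and length (adjusted p = 0.172). SUZ12, which scaffolds the complex, varied least, with group means that differed by at most 1.23-fold and libraries between 75.3 and 102 CPM. It passed in none of the comparisons between groups in the main fit, which does not show that it was equal: the 95% interval for dKO-D28 over WT-D28 was from -0.09 to 0.42 on the log2 scale. In the edgeR fit of only the compared samples SUZ12 passed in WT over 28 days (-0.28, adjusted p = 0.0481).

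RBBP4 and RBBP7 are histone-binding subunits that also serve the NuRD, SIN3 and CAF-1 complexes. RBBP4 was at 374 and 343 CPM in the WT libraries and 416 and 389 CPM in the dKO libraries at P2, at 357 and 425 CPM and at 303 and 353 CPM at P4, and at 279 and 285 CPM in WT-D28 and 358 and 436 CPM in dKO-D28. WT-D28 was the lowest group, and dKO-D28 was above it (log2 fold change 0.49, SE 0.12, adjusted p = 0.00255), by 0.64 without dKO-D28 replicate 1 and by 0.35 without replicate 2. RBBP4 fell in WT over 28 days (log2 fold change -0.34, adjusted p = 0.0371), and this call was lost without any 1 of the 4 libraries, with values from -0.41 to -0.28 and adjusted p from 0.0731 to 0.179, and with DESeq2 (adjusted p = 0.0509). RBBP7 lay between 109 and 175 CPM in all 12 libraries, and it passed in none of the comparisons of the main fit. It came closest in WT over 28 days (log2 fold change -0.39, adjusted p = 0.0519) and in dKO between P2 and P4 (log2 fold change -0.45, adjusted p = 0.0528). In edgeR fits of only the compared samples both passed (adjusted p = 0.00112 and 0.00206), as did dKO against WT at P4 (-0.27, adjusted p = 0.0495). The change in WT also passed with upper-quartile scaling (adjusted p = 0.0486). That in dKO also passed without a filter beyond 1 count (adjusted p = 0.0279). The ratio of RBBP4 to RBBP7 per length was 1.73 to 2.83 in the 12 libraries, so RBBP4 was the higher in each.

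JARID2, an accessory subunit that is itself an inactive member of the JmjC family, varied most of the 10, with group means up to 2.47-fold apart. It was at 158 and 121 CPM in the WT libraries and at 134 and 129 CPM in the dKO libraries at P2, where the dKO values lay between the WT values. It was at 68.8 and 70.1 CPM in WT NPCs at P4 and at 76.4 and 78.6 CPM in WT-D28, but at 164 and 179 CPM in dKO NPCs at P4 and at 150 and 128 CPM in dKO-D28. The 4 later WT libraries were therefore low and all dKO libraries high. The log2 fold change of dKO over WT was -0.07 (adjusted p = 0.895) at P2, 1.302 (SE 0.13, adjusted p = 4.60e-07) at P4 and 0.84 (SE 0.12, adjusted p = 2.05e-05) at day 28, where it was 0.74 without dKO-D28 replicate 1 and 0.96 without replicate 2. JARID2 fell in WT both from P2 to P4 (log2 fold change -0.98, adjusted p = 5.75e-05) and over 28 days (-0.83, adjusted p = 0.000135). The 4 differences that passed also did so at the same threshold in all 8 other fits and without any 1 library.

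In dKO, JARID2 was 0.38 higher on the log2 scale at P4 than at P2 (adjusted p = 0.0496), a call that was lost without any 1 of the 4 libraries (0.32 to 0.45, adjusted p from 0.101 to 0.218), and 0.08 higher at day 28 (adjusted p = 0.778). The difference between the genotypes in change was 1.37 (SE 0.19, adjusted p = 9.72e-05) from P2 to P4 and 0.90 (SE 0.19, adjusted p = 0.00176) over 28 days, and both passed without any 1 library. Neuron markers moved with these groups: in WT their sum rose from 1342 to 1538 CPM at P2 to 5176 to 5756 CPM at P4. In that comparison 8 of the 9 tested markers were upregulated, against 19% of all genes. In dKO their sum was 1117 to 1208 CPM at P2 and 993 to 1023 CPM at P4. The sum of 6 astrocyte markers went from 85.2 to 107 CPM at P2 to 1808 to 1963 CPM at P4 in WT, with SLC1A3, which radial glia express too, at 1755 and 1917 CPM. It was 296 to 301 CPM in WT-D28 and at most 37.7 CPM in dKO. LIN28A, a progenitor and stem cell RNA-binding protein, was at 78.7 to 86.2 CPM in the P2 libraries, at 0.506 to 0.987 CPM in WT at P4 and at 0.595 to 0.828 CPM in WT-D28, and at 30.9 to 79.1 CPM in dKO at P4 and day 28. In dKO NPCs at P4 a list of 11 neural crest or mesenchyme markers summed to 1787 to 1806 CPM, against 249 to 265 CPM in WT, with COL1A1 and COL1A2 as the most abundant, PAX3 at 31.6 and 32.6 CPM against 0 in both WT libraries, and FOXD3, TWIST1 and SOX10 below 4 CPM. The sum already stood apart at P2, where JARID2 did not pass. It was at 889 to 1094 CPM in dKO and 154 to 411 CPM in WT. The part of these markers in the JARID2 values was not tested.

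AEBP2, a zinc finger accessory subunit, was at 41.2 and 41.1 CPM in the WT libraries and 42.2 and 38.3 CPM in the dKO libraries at P2. It was at 32.6 and 33.7 CPM in the WT libraries and 44.1 and 56.1 CPM in the dKO libraries at P4, and at 32.9 and 30.7 CPM in WT-D28 and 54.5 and 36.5 CPM in dKO-D28. At P4 and day 28 both dKO libraries lay above both WT libraries, but they differed from each other by more than the groups' nearest values. The log2 fold change was 0.59 (SE 0.19, adjusted p = 0.0145) at P4 and 0.51 (SE 0.17, adjusted p = 0.0206) at day 28. Calls were lost without 1 library. At P4 the value was 0.41 (adjusted p = 0.152) without dKO replicate 2, 0.57 (adjusted p = 0.0725) without WT replicate 1 and 0.61 (adjusted p = 0.0697) without WT replicate 2. At day 28 it was 0.22 (adjusted p = 0.231) without dKO-D28 replicate 1, 0.55 (adjusted p = 0.0679) without WT-D28 replicate 1 and 0.46 (adjusted p = 0.127) without WT-D28 replicate 2. The day 28 call was also lost with DESeq2 (adjusted p = 0.0596) and with only the compared samples (adjusted p = 0.114).

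Change over time was then compared between the genotypes, which asks whether the 10 genes followed differentiation alike in WT and dKO. Over 28 days, 5 of the 10 passed in WT against 46.2% of all genes, with EZH1 upregulated and EZH2, EED, JARID2 and RBBP4 downregulated. In dKO, 0 of 10 passed with edgeR's quasi-likelihood test against 9.56% of all genes, 1 (EZH2) had an unadjusted p under 0.05 and 0 passed with DESeq2. The difference itself passed for 2 of 10, EZH2 and JARID2, against 30.1% of all genes, so for EZH1, EED and RBBP4 the changes in WT and dKO were not shown to differ. With 1 dKO-D28 library only, more differences passed, and not the same ones: RBBP4 without replicate 1 (0.47, adjusted p = 0.0135), and KDM6A (0.89, adjusted p = 0.00368) and AEBP2 (0.82, adjusted p = 0.0141) without replicate 2. From P2 to P4, 3 of 10 passed in WT (KDM6B, EZH2 and JARID2, all downregulated) against 38.1% of all genes, and 2 of 10 in dKO (JARID2 up, EZH2 down) against 19.6%. The difference between these changes passed for 2 of 10, KDM6B and JARID2, against 23.2% of all genes. The comparisons share samples: the P2 libraries serve both time courses, and each group serves several comparisons.

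**Figure D4:**
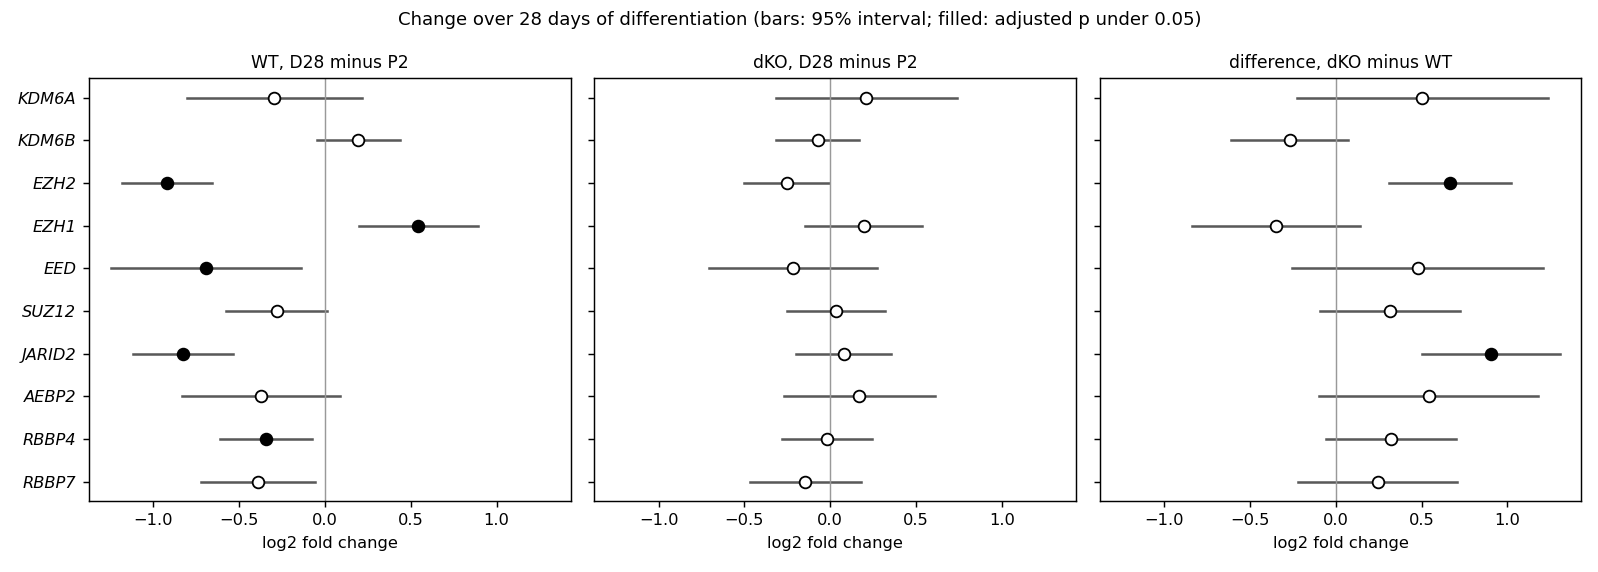
log2 fold change from P2 NPCs to day 28 (x axis) for the 10 genes (rows) in WT, in dKO, and the difference of the changes, dKO minus WT (panels), with 95% intervals from the edgeR fit as bars and filled points for an adjusted p under 0.05. WT has 5 filled points and dKO none, and EZH2 and JARID2 are filled in the difference.

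Other genes of the pathway came from lists of PRC2 accessory subunits, KDM6A partners, H3K27 acetyltransferases and other RBBP4/RBBP7 complexes. Of 8 PRC2 accessory or antagonist genes in the files 5 were tested; EPOP was at 0 in all groups. SKIDA1, on the list as a PRC2-associated protein, was at 88.7 and 76.4 CPM in WT NPCs at P2, at 19.8 and 23.5 CPM in WT at P4 and at 8.40 and 9.32 CPM in WT-D28, against 36 and 37.5 CPM in dKO at P4 and 34.6 and 47.2 CPM in dKO-D28. It was thus low in the later WT libraries, as JARID2 was, and its log2 fold change of dKO over WT was 0.75 (adjusted p = 0.00745) at P4 and 2.21 (adjusted p = 1.83e-07) at day 28, but -0.91 (adjusted p = 0.0457) at P2. MTF2, a subunit that binds CpG-rich DNA, was higher in dKO-D28 than in WT-D28 (log2 fold change 0.76, adjusted p = 0.000360). PHF19, a subunit of the same family, was lower in dKO at P4 (-1.26, adjusted p = 4.78e-06) and at day 28 (-0.60, adjusted p = 0.00163). At day 28, 2 of the 5 were higher and 1 lower, with a median log2 fold change of 0.10 against 0.0026 for all genes, of which 54.2% passed. Without dKO-D28 replicate 1 or 2, chosen as a check after seeing the data, the log2 fold change at day 28 was 2.42 or 1.96 for SKIDA1, 0.46 or 1.02 for MTF2 and -0.51 or -0.67 for PHF19.

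Of the 9 partners of KDM6A in the KMT2C and KMT2D complexes, 2 were upregulated and 2 downregulated in dKO NPCs at P4, where 49.6% of all genes passed. KMT2C, a methyltransferase partner, was at 256 and 272 CPM in the WT libraries and 134 and 131 CPM in the dKO libraries, and its log2 fold change was -0.995 (SE 0.11, adjusted p = 2.45e-06). KMT2D, its relative, went the other way, with 176 and 176 CPM in the WT libraries and 276 and 278 CPM in the dKO libraries (log2 fold change 0.65, SE 0.12, adjusted p = 0.000206). The median of the 9 was 0.14, against 0.02 for all genes. Of the acetyltransferases that place the opposing mark, EP300 was higher in dKO at P4 (log2 fold change 0.45, adjusted p = 0.00385) and CREBBP did not pass. Of 19 tested genes of the NuRD, SIN3 and CAF-1 complexes, 8 were higher and 4 lower in dKO-D28 than in WT-D28, where 54.2% of all genes passed, with a median log2 fold change of 0.14. The median was 0.34 without dKO-D28 replicate 1 and -0.06 without replicate 2. CHAF1A and CHAF1B, subunits of the replication-linked histone chaperone CAF-1, were among the higher (2.16, adjusted p = 2.08e-08, and 1.73, adjusted p = 1.05e-05), and CHD5 and CHD3, remodellers of the NuRD family, were among the lower (-6.30, adjusted p = 1.11e-09, and -0.97, adjusted p = 5.55e-07). Without dKO-D28 replicate 1 or 2 the values were 2.39 or 1.90 for CHAF1A, 1.86 or 1.61 for CHAF1B, -8.07 or -5.38 for CHD5 and -1.04 or -0.87 for CHD3. CHD5, a gene of neurons, was at 111.5 and 111.6 CPM in WT-D28 and at 2.63 and 0.380 CPM in dKO-D28.

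E2F factors, which regulate genes of the cell cycle, were listed together with the RB family because EZH2 and EED are known E2F targets. The list was not divided by what its members do, so its counts do not say whether E2F activity differed. Of the 13 genes of the list, 7 were higher in dKO-D28 than in WT-D28 and 8 fell in WT over 28 days, against 27.5% and 22.9% of all genes in those directions. The medians were 0.39 and -0.85, against 0.0026 and 0.038 for all genes. Without dKO-D28 replicate 1 or 2 the former was 0.72 or 0.59 with 9 or 8 genes higher. E2F7 (2.39, adjusted p = 1.22e-08) and E2F2 (2.26, adjusted p = 2.27e-07) had the largest log2 fold changes at day 28. They were 2.66 and 2.42 without dKO-D28 replicate 1 and 2.08 and 2.08 without replicate 2. The promoter windows of the 10 genes in RefSeq (GRCh38.p14, 250 bases before to 50 after a start) were searched on both strands for the letters TTTGGCGC, TTTCCCGC, TTTGGCGG and TTTCCCGG, none of which contains another. All 10 genes had a window and 15 windows were given; 3 of them held a match, as did 4.31% of the 35116 windows of all genes. They are shown because the genes that hold them differ in their course, with EZH2 falling and EZH1 rising in WT and SUZ12 varying least; capitals mark the matched letters.
EZH2 promoter: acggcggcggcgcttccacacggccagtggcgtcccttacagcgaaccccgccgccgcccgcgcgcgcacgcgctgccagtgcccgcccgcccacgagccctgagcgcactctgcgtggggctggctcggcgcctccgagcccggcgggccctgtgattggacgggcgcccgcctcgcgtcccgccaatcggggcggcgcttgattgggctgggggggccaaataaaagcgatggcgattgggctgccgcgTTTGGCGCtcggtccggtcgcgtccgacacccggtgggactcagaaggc
EZH1 promoter: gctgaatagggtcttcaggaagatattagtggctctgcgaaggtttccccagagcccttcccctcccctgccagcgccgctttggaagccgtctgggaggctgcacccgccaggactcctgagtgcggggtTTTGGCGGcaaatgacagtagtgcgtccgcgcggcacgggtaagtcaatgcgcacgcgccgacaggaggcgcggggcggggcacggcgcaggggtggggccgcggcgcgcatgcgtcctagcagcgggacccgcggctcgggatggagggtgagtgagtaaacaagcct
SUZ12 promoter: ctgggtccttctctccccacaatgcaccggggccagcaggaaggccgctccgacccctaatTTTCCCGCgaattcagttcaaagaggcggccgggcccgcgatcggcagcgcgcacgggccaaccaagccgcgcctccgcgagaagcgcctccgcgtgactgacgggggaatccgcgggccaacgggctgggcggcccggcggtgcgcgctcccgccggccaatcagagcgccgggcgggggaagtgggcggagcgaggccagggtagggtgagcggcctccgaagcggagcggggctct
The EZH2 window is chr7:148884242-148884541 (minus strand) and its match TTTGGCGC starts at base 252 of the window. The EZH1 window is chr17:42744991-42745290 (minus strand), with TTTGGCGG from base 132. The SUZ12 window is chr17:31936757-31937056 (plus strand), with TTTCCCGC from base 62. A match is a string of letters and no evidence of binding, and windows without a match, those of EED, RBBP4 and JARID2 among them, lack only these letters.

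Some counts may be shared with other copies. SUZ12P1, a partial copy of SUZ12 on the same chromosome, had 1296 counts over the 12 libraries, 32.8% of those of SUZ12. EZH2P1 had 1.62% of the EZH2 counts, EEDP1 0.195% of the EED counts, and 7 RBBP4 pseudogenes together 3.44% of the RBBP4 counts. TXLNG overlaps RBBP7 on the other strand and had 32.7% of its counts, and SYNC overlaps RBBP4 likewise and had 12.2%. The sources used here do not say whether the libraries mark strand, so whether reads from the overlaps were told apart by strand is not known. These percentages compare the counts of whole genes and do not measure shared reads. Reads in shared bases were not counted, so how far the values of SUZ12, RBBP7 and RBBP4 are affected is not known.

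Likeness over the 12 libraries was described by Pearson's r of log2 CPM; the points share group and depth, so r is a description only. The tested genes most like EZH2 were MYH10 (0.984), PAXIP1 (0.974) and DIAPH3 (0.972), and those most like KDM6B were DIDO1 (0.937), NHSL2 (0.929) and APBB3 (0.928). For KDM6A they were MYEF2 (0.932), BNIP3L (0.927) and JAK2 (0.910), and for EZH1 they were KSR1 (0.934), PLXNA1 (0.934) and SLC9A7 (0.919). Among the 10 genes, JARID2 and AEBP2 were most alike (0.854), then EZH2 and RBBP4 (0.805) and EED and EZH2 (0.737). EZH1 was the most opposed of the 10 to EZH2 (-0.520), EED (-0.605), SUZ12 (-0.657), JARID2 (-0.634) and AEBP2 (-0.443). SUZ12 and RBBP7 were each most like the other (0.607).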

How the data were processed

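RNA was extracted with TRIzol, and libraries were made with a TruSeq RNA kit and sequenced on a NextSeq. Per the labels, the authors aligned reads to hg38 with HISAT2 2.0.4, handled them with SAMtools 1.3.1 and deposited raw counts per gene made with HTSeq 0.6.0; DESeq 1.18.1 is named too. The annotation release and strand setting of the counting are not given in the sources used here. The counts of the 12 samples, 2 in each of 6 groups named by the labels, were fitted together in edgeR 4.0.16 (R 4.3.3, limma 3.58.1) with 1 mean per group, TMM library sizes and the robust quasi-likelihood fit, over the 13454 of 58302 genes whose counts averaged 20 or more. All p-values are two-sided and adjusted by Benjamini-Hochberg over those genes; an adjusted p under 0.05 passed. The SE is the log2 fold change divided by the root of F. The study's methods used EDASeq, which was not used here. Exon positions came from GENCODE v44, in which 98.7% of the genes were found. Labels name passage 4 only; passage 2 comes from the study's methods. No batch is given, so batch and group cannot be told apart. Alternatives were DESeq2 1.42.0, other filters and scalings, a correction for GC content and length, a replicate block, fits of the compared samples only, the study's threshold (unadjusted p under 0.05 and fold over 2) and leaving out each library, for the lists at day 28 as a check chosen after seeing the data. Scripts were tested on simulated data. The 10 genes and all lists were chosen with earlier results of these data known. The genes named are the 10, in each list up to 2 that passed with the largest rise and up to 2 with the largest fall per comparison and defining markers at 0, the 3 genes most like KDM6A, KDM6B, EZH2 and EZH1, and pseudogenes by symbol. Marker levels (SOX2, NES, VIM, HES5, PAX6, SOX1, FABP7, LIN28A, DPPA4, ZFP42, SLC1A3, the collagen, PAX3, FOXD3, TWIST1 and SOX10 values) were named outside this rule, after their values were seen. So were MKI67, TOP2A, CREBBP, overlapping genes and most opposed pairs.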

Additional observations from a re-analysis of the deposited data

Results flagged for a closer look

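The change from P2 NPCs differed between WT and dKO by the test of the difference itself (edgeR) in 4 cases. Over 28 days the difference, dKO minus WT on the log2 scale, was 0.67 for EZH2 and 0.90 for JARID2. From P2 to P4 it was 0.74 for KDM6B and 1.37 for JARID2. By the same test, 23 of the 24 proliferation markers were higher in the difference over 28 days (median 1.9). From P2 to P4, 3 were higher and 1 lower (median -0.251). Of the 9 tested neuron markers, 7 were lower in either difference (medians -1.94 and -2.06). Of all genes, 15.7% were higher and 14.4% lower over 28 days, and 11.2% and 12% from P2 to P4. The part of these markers in the 4 differences was not tested. Groups of 2 samples were not searched for samples far from the others.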

How the results depend on the processing

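Of 1250 values of single genes under alternatives, 82 lost the call, 18 gained it and 1 turned its direction with a call. The other 1149 kept their side of the threshold, 1106 of them with the same direction, and 43 that passed neither way changed sign from log2 fold changes of at most 0.28 in size. The called value that turned is KDM6A at day 28, which was -0.51 without dKO-D28 replicate 1 and 0.35 without replicate 2. The cause of these shifts was not tested.

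Of the 10 genes, the number that passed in dKO against WT at P4 was 2 with the correction for GC content and length, alone or with the replicate block, and 1 by the study's threshold. By that threshold it was 0 at day 28, for either change in WT, for the change from P2 to P4 in dKO and for the difference over 28 days, and 1 for the difference at P4. For WT over 28 days it was 3 without a filter beyond 1 count, when every sample had to reach 10 counts, and with DESeq2. For dKO from P2 to P4 it was 1 with the correction, alone or with the block, 1 with DESeq2 and 4 with only the compared samples. For the differences in change it was 1 each with the correction, alone or with the block, and 4 at P4 with only the compared samples.

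Over all genes, dKO against WT at P2 gave 373 calls, 704 without the filter, 837 with only the compared samples and 596 by the study's threshold. That threshold gave 3001 at P4, 3250 at day 28, 3281 for WT over 28 days, 2663 for WT and 1322 for dKO from P2 to P4. For dKO over 28 days there were 2309 without the filter and 490 with only the compared samples, and for dKO from P2 to P4 there were 4096 with only the compared samples.

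Leaving out each library, the 10 genes gave 0 to 0 calls at P2, 2 to 4 at P4, 4 to 7 at day 28, 2 to 4 for WT and 0 to 2 for dKO over 28 days, 1 to 3 for WT and 1 to 2 for dKO from P2 to P4, and 2 to 4 and 2 to 2 for the differences over 28 days and at P4. All genes gave 20 to 357 at P2, 4909 to 5521 at P4, 5425 to 8184 at day 28, 4302 to 4955 for WT and 582 to 2434 for dKO over 28 days, 3149 to 4032 for WT and 1236 to 1700 for dKO from P2 to P4, and 3035 to 5254 and 2039 to 2555 for the differences. The log2 ratio of EZH2 to EZH1 differed by -0.042 to 0.38 at P2, -0.067 to 0.10 at P4 and 0.94 to 1.51 at day 28, by -1.72 to -1.31 for WT and -0.74 to -0.17 for dKO over 28 days, and by -0.78 to -0.36 for WT and -0.81 to -0.64 for dKO from P2 to P4.

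Replicate numbers did not pair the samples: deviations of same-numbered samples had correlations from -0.0555 to 0.182 over 15 pairs of groups. With the replicate block, 1 of the 10 genes passed for dKO from P2 to P4 in place of 2, JARID2 being at 0.38 (adjusted p = 0.0510), and no other call of the 10 changed with the block alone. The P2 libraries are the smallest, and how far depth limits their comparisons was not tested.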
